A study of Mus musculus with 3 samples.

Results

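MiR-21a-5p, the mature microRNA (miRNA) from the 5′ arm of the miR-21a hairpin, was followed in small RNA libraries of the growing mouse heart. It is 1 of the 1900 mature miRNA accessions in the count table and was taken by its miRBase accession, MIMAT0000530, without a threshold on its reads. The choice of this miRNA was made with earlier results of these data known. The libraries came from hearts of wild type C57BL/6 mice on postnatal day 1 (P1), day 7 (P7) and day 28 (P28), none of them carrying a transgene or given a treatment per the labels. The labels say heart, and the study text says ventricles. Each age had 1 library, so the differences between ages have no replicate check, and whether a library came from 1 heart or from several is not given in the sources used here. The other accessions are not paired with miRNA names in the sources used here. Marker miRNAs of cardiomyocytes, fibroblasts, vessels and blood, and other miRNAs of the pathways in which miR-21 is known, were therefore not analysed here, and the tissue label was not checked against such markers.

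MiRNAs are cut from hairpin transcripts and, loaded onto Argonaute proteins, lower the output of mRNAs that pair with their seed, the bases near the 5′ end. MiR-21 is one of the most widely expressed miRNAs of mammals. In the heart it is best known from fibroblasts, where it is induced by injury and pressure overload, and its studied targets include Spry1, an inhibitor of ERK signalling, and Pdcd4, which promotes apoptosis. The weeks from P1 to P28 are those in which cardiomyocytes leave the cell cycle and the heart grows by enlargement of its cells.

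The Mir21a hairpin lies on the minus strand of chromosome 11 at chr11:86584067-86584158 (GRCm38.p6, the assembly also called mm10). In GENCODE release M21 this is within exon 12, the last exon, of the full-length Vmp1 transcript, in its 3′ UTR and on the same strand. Vmp1 encodes a membrane protein needed for autophagy. The 92-base hairpin holds the 5p arm at bases 18 to 39 and the 3p arm at bases 56 to 77, counted from its 5′ end, so 16 bases lie between the arms. The mature 5p sequence, at chr11:86584120-86584141, is given with its opposite arm and with the mouse miRNAs named miR-21b and miR-21c, because reads of near copies can be counted together. All are from RefSeq, and capitals mark the seed, bases 2 to 8.

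miR-21a-5p: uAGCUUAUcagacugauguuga
miR-21a-3p: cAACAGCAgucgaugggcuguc
miR-21b: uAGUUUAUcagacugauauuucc
miR-21c: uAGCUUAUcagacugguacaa

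Of 1679 mature mouse miRNA names in the RefSeq table, 2 had the seed AGCUUAU, namely miR-21a-5p and miR-21c. MiR-21c is encoded on chromosome 8 and shares its first 15 bases with miR-21a-5p, after which the 21 bases compared differ at 5 positions (A16G, G18A, U19C, U20A and G21A, with the miR-21a-5p base first and positions counted from the 5′ end). MiR-21b, encoded on chromosome 3, differs at 4 of 22 positions (C4U, G18A, G21U and A22C). Of these, C4U changes the seed. A read that covers the 3′ part of the mature sequence can thus be told from either relative, whereas one trimmed to the shared start cannot be told from miR-21c. The rows of miR-21b, miR-21c and miR-21a-3p were not analysed here, since the table carries no names. MIMAT0000530 had a single row with no copy suffix, and 0 other rows had counts within 1% of it in every library.

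MiR-21a-5p was among the most abundant miRNAs at P1 and P7 and less abundant at P28. It had 27073 reads in the P1 library, 41501 in the P7 library and 13161 in the P28 library, out of library totals of 1944237, 2465680 and 2842526. The deepest library thus held the fewest of its reads. Levels are reads scaled to a library of 1000000, written CPM. The P1 level was 13925 CPM, with a 95% Wilson interval from 13761 to 14090. At P7 it was 16831 CPM (16672 to 16993), and the P28 library had 4630 CPM (4552 to 4710). The intervals of the 3 ages did not overlap, P7 being the highest and P28 the lowest, but they cover counting error only and not the variation between hearts. In heart tissue of mixed cells, fewer cells of a type and less RNA per cell cannot be told apart. CPM is a share of the library, so it also depends on the levels of the other miRNAs.

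**Figure D1:**
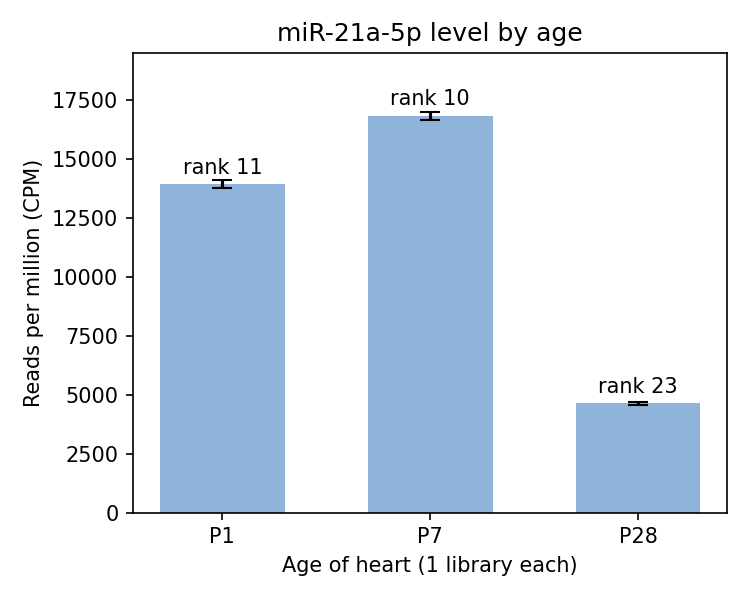
Level of miR-21a-5p in each library, in CPM, with 95% Wilson intervals for counting error; the number above each bar is its rank among mature accessions. The P28 bar, at 4630 CPM, stands far below those of P1 and P7, at 13925 and 16831 CPM.

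MiR-21a-5p made up 1.39% of the P1 library, 1.68% of the P7 library and 0.463% of the P28 library. The most abundant accession took over 40% of each library, at 43.0%, 42.6% and 45.3% in the same order. Set against that accession, which leaves library totals out of the comparison, miR-21a-5p had 32.4 reads per 1000 in the P1 library, 39.5 in the P7 library and 10.2 in the P28 library. The order of the ages was the same on both scales. This is no separate check, since that accession held a similar share of each library.

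By rank, miR-21a-5p was number 11 of the P1 library, 10 of the P7 library and 23 of the P28 library, among 657, 712 and 606 mature accessions with at least 1 read. Some accessions repeat the counts of another within 1%, and with stem-loop rows and these repeats left out its rank was 10, 8 and 21. At P1 the accession ranked just above it was at 16806 CPM (16626 to 16987) and the one just below at 13081 CPM (12922 to 13241), so its place was set apart from both neighbours by more than counting error. At P7 the neighbours were at 19352 CPM (19181 to 19525) above and 12281 CPM (12144 to 12419) below, again apart by more than counting error. At P28 the accession just above was at 4702 CPM (4623 to 4782), an interval that overlaps that of miR-21a-5p, and the one just below was at 3329 CPM (3263 to 3397). Rank 22 and rank 23 at P28 could therefore not be told apart at this depth.

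Between P1 and P7 the level differed little. The log2 ratio was 0.27 (95% Clopper-Pearson interval 0.25 to 0.30), a level 1.21-fold higher at P7. Ratios here use a pseudocount of 0.5 reads, and an accession was called different when its level differed at least 2-fold, among the 279 accessions that averaged 10 CPM or more over the libraries. By that measure miR-21a-5p was not called, while 22.6% of the accessions were, 31 of them higher and 32 lower at P7. The median accession had a log2 ratio of 0.03, and 167 of the 279 had a lower ratio than miR-21a-5p.

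The larger difference came after P7. The log2 ratio of P28 against P7 was -1.86 (-1.89 to -1.83), so the P28 level was 27.5% of the P7 level, or 3.64-fold lower. It was 2-fold lower or more in a comparison in which 42.7% of the accessions were, 119 being lower and 8 higher. The median accession was also lower at P28, with a log2 ratio of -0.79, and miR-21a-5p lay 1.07 below that median. Of the 279 accessions, 50 had a lower ratio than miR-21a-5p and 228 a higher one.

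Over the whole interval, the log2 ratio of P28 against P1 was -1.59 (-1.62 to -1.56), a level 3.01-fold lower at P28. Again 42.7% of the accessions were at least 2-fold lower, with 119 lower and 38 higher. Here miR-21a-5p lay 0.85 below the median of -0.74, with 81 accessions lower and 197 higher. A call of at least 2-fold lower was thus common at P28 and does not by itself set miR-21a-5p apart. The comparisons with P28 share that library, and the pair with P1 share the P1 library, so they are not independent of each other.

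**Figure D2:**
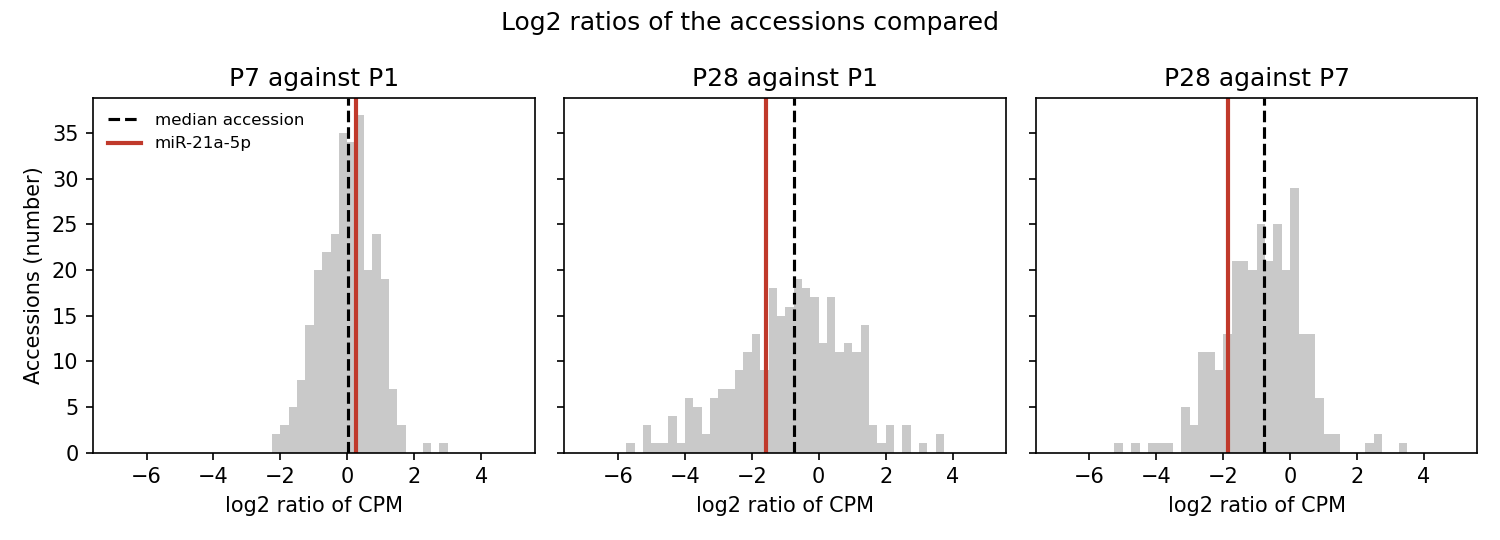
Histograms of the log2 ratio of CPM for the 279 accessions averaging 10 CPM or more, in each pair of libraries, with the number of accessions on the vertical axis. The red line marks miR-21a-5p and the dashed line the median accession; they lie close together for P7 against P1 (0.27 and 0.03) and apart for P28 against P7 (-1.86 and -0.79).

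The size of the decrease depended on how the libraries were scaled, while its direction did not. The scalings of edgeR (TMM) and DESeq2, which place the typical miRNA near no change, moved the median of P28 against P1 up by 0.62 and 0.63. MiR-21a-5p then had a log2 ratio of -0.96 under either, just short of 2-fold. The accessions called in that comparison were 69 higher and 80 lower under both, in place of 38 and 119. For P28 against P7, the ratio stayed past 2-fold, at -1.31 with TMM and -1.21 with DESeq2 size factors, with 28 higher and 70 lower, and 32 higher and 61 lower, in place of 8 and 119. A change of scaling adds one amount to every ratio of a comparison, so the distance of miR-21a-5p from the median, -0.85 and -1.07, was the same under these scalings by construction.

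**Figure D3:**
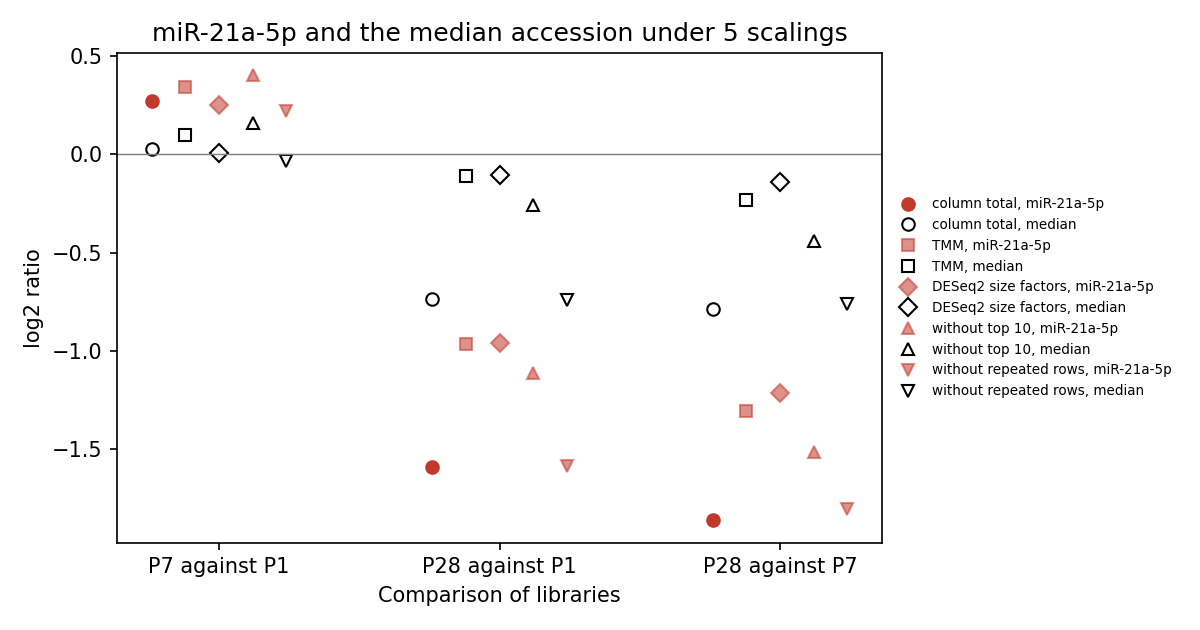
Log2 ratio of miR-21a-5p (filled symbols) and of the median accession (open symbols) in each pair of libraries under 5 scalings. MiR-21a-5p is below the median in both comparisons with P28 under each scaling, and its P28 against P1 value ranges from -1.59 by library total to -0.96 with TMM and DESeq2 size factors.

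The share of accessions with a 2-fold decrease or more is given by abundance, without a test between the classes. These shares and medians are by library total and were not computed by class under the other scalings. Over all 279 accessions, the share at P28 against P7 was 25.1% with TMM and 21.9% with DESeq2 size factors, in place of 42.7%. Accessions that repeat the counts of another were kept in the classes. At P28 against P7, 51.7% of the 145 accessions with a mean of 10 to 100 CPM were at least 2-fold lower, against 37.0% of the 81 at 100 to 1000 CPM and 26.4% of the 53 at 1000 CPM or more, the class of miR-21a-5p. Within its class, 5 accessions had a lower ratio than miR-21a-5p and 47 a higher one, and the median was -0.42. At P28 against P1, 9 of the class were lower and 43 higher, and the median was -0.22. At P7 against P1, 32 were lower and 20 higher.

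The accessions that ranked above miR-21a-5p were followed to P28 by library totals. Of the 9 above it at P7, 0 were at least 2-fold lower at P28, and their log2 ratios of P28 against P7 ran from -0.77 to 1.06. Of the 10 above it at P1, 1 was at least 2-fold lower at P28, with log2 ratios of P28 against P1 from -1.21 to 0.47, and 6 of the 10 were higher. MiR-21a-5p was therefore the only accession of the 10 most abundant at P7 whose CPM was 2-fold lower or more at P28. These groups were formed by the rank of miR-21a-5p itself and served as a description. Accessions that repeat the counts of another were kept in them, and the 9 above it at P7 include such a pair. Without repeats its rank was 10 at P1 and 8 at P7, so the make-up of both groups depends on how repeats are counted.

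Between P7 and P28 the level of miR-21a-5p fell by 12201 CPM, and 2 accessions of 1900 lost more. This was 10.1% of the summed losses of all accessions that fell in that interval. Between P1 and P28 it fell by 9295 CPM, with 1 accession losing more, which was 9.05% of the summed losses. Between P1 and P7 it gained 2907 CPM, 2.58% of the summed gains, and 8 accessions gained more. A few abundant miRNAs can dominate such sums. The sums hold by library total only, where a gain in share of some accessions lowers the share of others, and they were not computed under the other scalings.

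Courses over the 3 ages were counted by library totals. By the sign of the differences, 102 of the 279 accessions (36.6%) rose from P1 to P7 and fell from P7 to P28 as miR-21a-5p did, against 108 that fell at both steps, 44 that rose at both and 25 that fell and then rose. Of the 53 accessions at 1000 CPM or more, 20 rose and then fell. Accessions that repeat the counts of another are counted separately in the 279 and in the 53. With stem-loop rows and repeats left out, 268 accessions were compared in place of the 279. P28 was the lowest of the 3 ages for 178 of the 279 and for 26 of the 53. A narrower course, under 2-fold between P1 and P7 and at least 2-fold lower at P28 than at either, was that of miR-21a-5p and of 73 accessions in all, itself included, of which 7 averaged 1000 CPM or more. These counts depended on the scaling, in an alternative added after the data were seen. With TMM, 70 of the 279 rose and then fell, 87 rose at both steps, and P28 was the lowest age for 134, and with DESeq2 size factors these numbers were 61, 80 and 132. MiR-21a-5p rose and then fell under both, but it left the narrower course, since its P28 level was then just under 2-fold below that of P1, and that course then held 41 and 36 accessions.

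**Figure D4:**
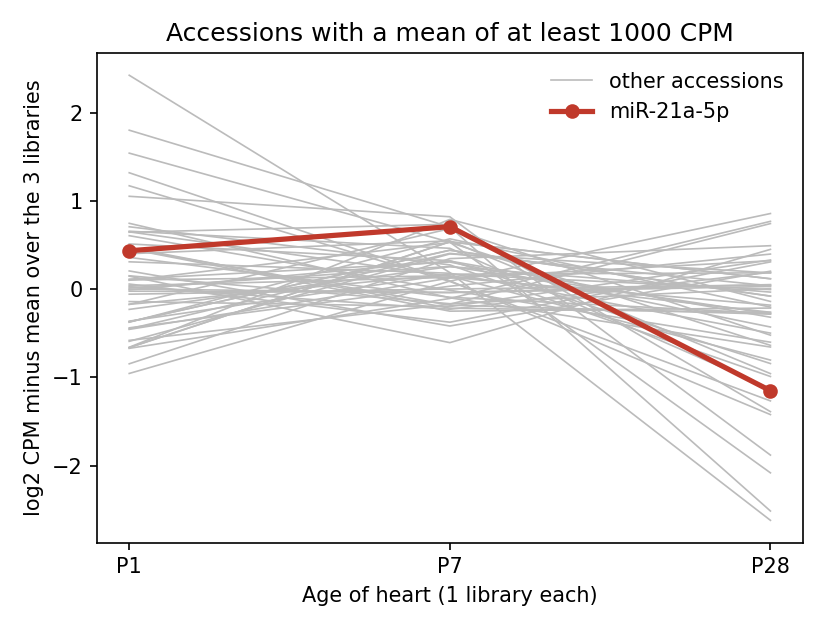
Courses of the 53 accessions that averaged 1000 CPM or more, as log2 CPM minus the mean of each accession over the 3 libraries, by age. MiR-21a-5p (red) goes from 0.44 in the P1 library to 0.71 in the P7 library and -1.15 in the P28 library; most grey lines stay closer to 0 at P28.

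The accessions with the most similar course were sought among the 133 others that averaged 100 CPM or more, by the Euclidean distance between log2 CPM values centred on their mean over the 3 libraries. The median distance from miR-21a-5p was 1.35, and 14 accessions were within 0.5. The nearest was MIMAT0000746, at a distance of 0.07, with 990, 1422 and 470 reads in order of age. Its levels were 509, 577 and 165 CPM, far below those of miR-21a-5p, and its log2 ratios were 0.18 for P7 against P1 and -1.80 for P28 against P7. The second, at 0.25, was MIMAT0003482, with 8156, 11449 and 4642 reads, or 4195, 4643 and 1633 CPM. Its log2 ratios were 0.15 and -1.51. With 3 libraries, each a different age, a course has few ways to differ, and the likeness is a description.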

How the data were processed

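Small RNA libraries were built with a NEBNext kit, per the labels, and the submitters' processing notes name bcl2fastq, TopHat and mm10. The miRBase release and the handling of strand and of reads with several positions are not given in the sources used here. The table deposited by the authors holds raw read counts, without normalization, in 2049 rows, 14 of them stem-loops. Rows of a mature accession were summed, giving 1900 accessions. CPM used the full library total. At these depths 3 reads are 1.06 to 1.54 CPM. Intervals are 95% Wilson (levels) and Clopper-Pearson (ratios), and reads carry no stated molecular identifiers. With 1 library per age no test could be fitted, and a difference was called at 2-fold. The script that computes ratios and 2-fold calls was checked on simulated counts without variation between hearts, so that check says nothing about how such variation affects a call. MiR-21a-5p, the lists and the rules were chosen with earlier results of these data known. The rules would have named the other hairpin arm, the seed relatives, 2 rank neighbours on each side, 5 nearest courses, and the most abundant and the most changed members of lists that include cell type, hypertrophy and proliferation miRNAs. A further list is not reported here. Accessions were not paired with names, so the arm ratio and these lists were not analysed here, and identifiers are printed for the 2 nearest courses only. Alternatives were 4 other scalings, a pseudocount of 5 reads, filters at 1 CPM, 100 CPM or none, a fold of 1.5 or 4, and rows taken singly. Analyses used Python 3.11.15, pandas 2.3.3, numpy 2.4.6, scipy 1.17.1, matplotlib 3.10.9, R 4.3.3, edgeR 4.0.16 and DESeq2 1.42.0, the last 2 for scaling factors only.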

Additional observations from a re-analysis of the deposited data

How the results depend on the processing

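Of 57 alternative values, courses aside, 20 moved little (a ratio within its counting interval, a count within 1.5 times) and 37 moved. Only the ratios of the comparisons with P28 could reverse a called direction, and 0 did. Counts, ranks, levels and the ratios of P7 against P1, which was not called, had no such direction to reverse. The log2 ratio of miR-21a-5p at P7 against P1 was 0.34 with TMM, 0.40 with the total without the 10 most abundant accessions and 0.22 with stem-loop and repeated rows left out. At P28 against P1 it was -0.96 with TMM, -0.96 with DESeq2 size factors and -1.11 without the 10 accessions. At P28 against P7 it was -1.31, -1.21 and -1.51 in that order and -1.81 with stem-loop and repeated rows left out. Leaving the 10 accessions out of the total raised its CPM to 48802, 64540 and 22611 at P1, P7 and P28. Leaving out stem-loop and repeated rows together raised it to 16621, 19385 and 5544. A smaller total gives larger shares. Its rank was 15, 11 and 25 among single rows and 10, 8 and 21 without repeated rows. Of 279 accessions compared, 63 (22.6%) were called in either direction at P7 against P1, and 119 (42.7%) were lower in each comparison with P28. With the filter at 1 CPM the calls were 138, 211 and 204 of 483. At 100 CPM they were 31, 46 and 44 of 134, and with no filter 396, 357 and 358 of 851. The number compared changed with the filter, so these counts are to be read against it. At 4-fold, with the 279 compared, the calls were 4, 64 and 44. At 1.5-fold, P7 against P1 gave 135. At P28 against P7, TMM gave 70 lower and DESeq2 size factors 61. No paired analysis was possible because there was 1 library for every age, which also left no replicate to leave out.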
